A study of Arabidopsis thaliana with 12 samples.

Results

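Shoots of Arabidopsis thaliana seedlings kept on KU63794 were compared with mock shoots. The comparison used the 3 KU63794 libraries and the 3 mock libraries of a series of 12 libraries, and it covered every gene in the count files. KU63794 is a compound that blocks the ATP site of the TOR kinase, and one label field spells it KU63749. All seedlings were wild-type Col-0, 4 days past germination, and had grown in continuous light. They then stayed for 8 h on fresh plates with 20 µM KU63794, or with the solvent DMSO alone (mock), and only shoot tissue was taken. The remaining libraries, 3 per compound, came from plates with 2 µM AZD8055 or 10 µM TORIN1, so the doses differed between compounds. Polyadenylated RNA was counted for 33602 genes, and 17933 of them passed a filter on low counts and were tested.

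TOR is a protein kinase that is active when sugars, nitrogen and light energy are at hand. In plants it promotes ribosome production, translation, cell growth and entry into the cell cycle, and it restrains autophagy, the delivery of cell contents to the vacuole for breakdown. SnRK1, a kinase that is active at low energy, acts in the opposite sense.

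Ribosome genes of Arabidopsis often carry 2 short elements just before the gene start, the telo box (AAACCCTA) and the site II element (TGGGCC or TGGGCT). Both were searched on both strands in the window from 250 bases before to 50 bases after the start of each gene, on the RefSeq TAIR10.1 genome. The telo box was present in 14.8% of the promoters of genes lower with KU63794, in 1.75% of those of genes higher with KU63794 and in 6.22% of all 27443 promoters. The site II element was present in 40.3%, 19.2% and 21.7% of the same sets. The 27443 promoters include genes that were not tested, while the higher and lower sets come from tested genes only. Without the ribosomal protein genes, 13.7% of the promoters of lower genes still held the telo box. Of the 24 genes of the nucleolus list, 13 held the telo box and 19 the site II element. The shares are descriptions, and a match in letters is not shown to be a working site.

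Stretches of 180 bases that end at the base before the gene start are shown for 4 genes of the translation machinery that were lower with KU63794. HDT4, which was also lower, and PHS1, which was higher, are shown beside them for contrast. NOP56 lies at chr1:20986953-20987132 on the minus strand, AT5G27120 at chr5:9540681-9540860 on the plus strand, LOS1 at chr1:20971743-20971922 on the minus strand and AT2G37600 at chr2:15775375-15775554 on the minus strand. HDT4 lies at chr2:11861626-11861805 and PHS1 at chr3:11252627-11252806, both on the plus strand. Each is written 5′ to 3′ on the strand of its gene, with capitals for telo boxes and site II elements, and in PHS1 for G-boxes (CACGTG).
NOP56: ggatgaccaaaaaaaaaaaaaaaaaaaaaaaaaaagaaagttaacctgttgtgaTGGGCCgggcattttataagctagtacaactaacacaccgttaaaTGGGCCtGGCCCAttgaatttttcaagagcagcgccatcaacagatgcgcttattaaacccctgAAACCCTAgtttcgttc
AT5G27120: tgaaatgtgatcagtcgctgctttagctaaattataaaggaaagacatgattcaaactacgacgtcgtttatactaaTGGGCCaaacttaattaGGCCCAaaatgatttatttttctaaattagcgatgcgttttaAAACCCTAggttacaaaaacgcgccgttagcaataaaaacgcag
LOS1: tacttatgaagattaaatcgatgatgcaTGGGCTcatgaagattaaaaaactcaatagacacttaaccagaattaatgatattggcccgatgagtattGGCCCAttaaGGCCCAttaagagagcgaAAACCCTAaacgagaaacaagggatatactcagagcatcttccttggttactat
AT2G37600: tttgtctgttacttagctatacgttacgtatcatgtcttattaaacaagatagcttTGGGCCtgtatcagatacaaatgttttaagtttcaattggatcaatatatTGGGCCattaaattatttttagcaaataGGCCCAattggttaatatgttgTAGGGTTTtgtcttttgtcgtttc
HDT4: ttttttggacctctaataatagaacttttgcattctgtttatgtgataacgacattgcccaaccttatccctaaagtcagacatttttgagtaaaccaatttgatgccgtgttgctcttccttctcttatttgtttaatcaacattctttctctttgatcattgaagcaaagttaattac
PHS1: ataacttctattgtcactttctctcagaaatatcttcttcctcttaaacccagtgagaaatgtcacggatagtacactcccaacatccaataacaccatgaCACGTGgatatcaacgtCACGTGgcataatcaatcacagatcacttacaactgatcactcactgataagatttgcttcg
The first 4 stretches each hold 1 telo box together with 2 or 3 site II elements. The HDT4 stretch holds neither, and the PHS1 stretch holds 2 G-boxes and neither of the other elements. The G-box was found in 10 of the 30 promoters of the starch list, 33.3%, and in 14 of the 40 promoters of the photosystem list, 35.0%, against 7.68% of all promoters. Among genes higher with KU63794 as a whole its share was 9.31%, against 9.22% of the genes tested.

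**Figure D1:**
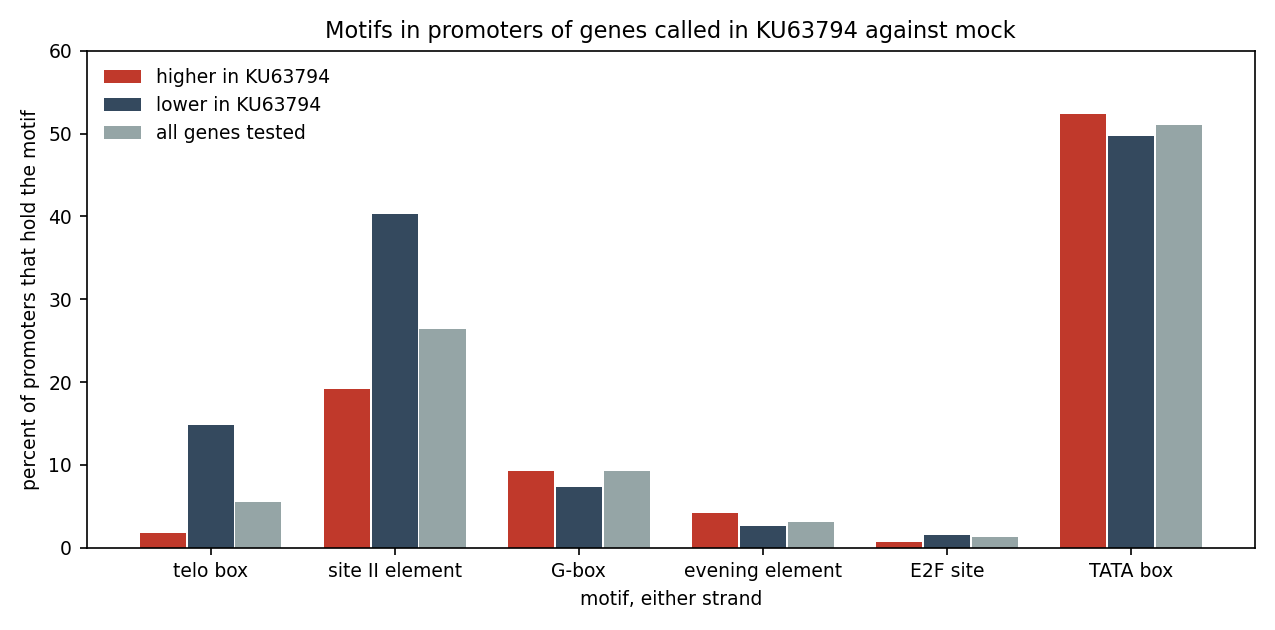
Percent of promoters (y axis) that hold each of 6 motifs (x axis) among genes higher in KU63794, genes lower in KU63794 and all genes tested. The telo box stands at 1.75% of higher genes and 14.8% of lower genes, and the TATA box differs little between the sets.

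Total counts were 11947367, 12220409 and 11623964 in the KU63794 libraries and 14220537, 10552958 and 7706957 in the mock libraries. At these depths a count of 0 allows up to 0.234 to 0.249 CPM (counts scaled to 1000000 per library after TMM scaling) with KU63794 and 0.205 to 0.391 CPM in mock, for counting error only. By the number of genes that differed, KU63794 replicate 2 stood apart from the other libraries of its group. It differed at least 2-fold from replicates 1 and 3 in 963 and 871 genes, while those differed from each other in 568 genes and mock libraries in 556 to 738. The leading log2 difference, taken over the genes that differed most, instead set KU63794 replicate 1 apart. It was 2.68 between replicates 1 and 2, 2.47 between 1 and 3 and 2.09 between 2 and 3. Results are also given without KU63794 replicate 2 for some of the lists that changed. Other lists changed too without that library. The expansins, for example, went from 8 to 6 lower members. Shoot marker genes were present at a summed 21884 to 22081 CPM with KU63794 and 25477 to 26819 CPM in mock, nearly all of it the Rubisco small subunit RBCS1A. Of 14 root markers, 6 passed the filter, with summed levels of 15.01 to 15.86 CPM with KU63794 and 15.6 to 19.4 CPM in mock. The root stem cell gene WOX5 had 16 counts over the 3 KU63794 libraries and 12 over the 3 mock libraries.

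KU63794 changed 4555 genes relative to mock at an adjusted p below 0.05 (edgeR quasi-likelihood test, Benjamini-Hochberg adjustment). Of the genes tested, 1988 (11.1%) were higher and 2567 (14.3%) were lower with KU63794. Among lower genes the median log2 fold change was -0.70, and among higher genes it was 0.59, while over all genes tested it was 0.01. Changes of at least 2-fold were called in 683 lower genes (3.81% of those tested) and 374 higher genes (2.09%), but changes of at least 4-fold in 40 lower and 76 higher genes. Without KU63794 replicate 2 the counts were 1558 higher and 2112 lower, and 1399 and 1981 of the calls above were among them. The KU63794 libraries lay all above the mock libraries in 3719 tested genes (20.7%) and all below them in 4177 (23.3%), called or not. A called gene was eligible to be named only if the groups did not overlap, so that separation follows from the choice of genes. Whether the 3 libraries of a group stand for separate batches of seedlings is not in the labels, and the spread behind each p-value may therefore be technical. The authors' deposited table for this compound lists 4558 genes, of which 4296 were also called here, 94.3% of either list. All 4296 had the same direction once the sign of that table, which gives mock over KU63794, was turned.

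**Figure D2:**
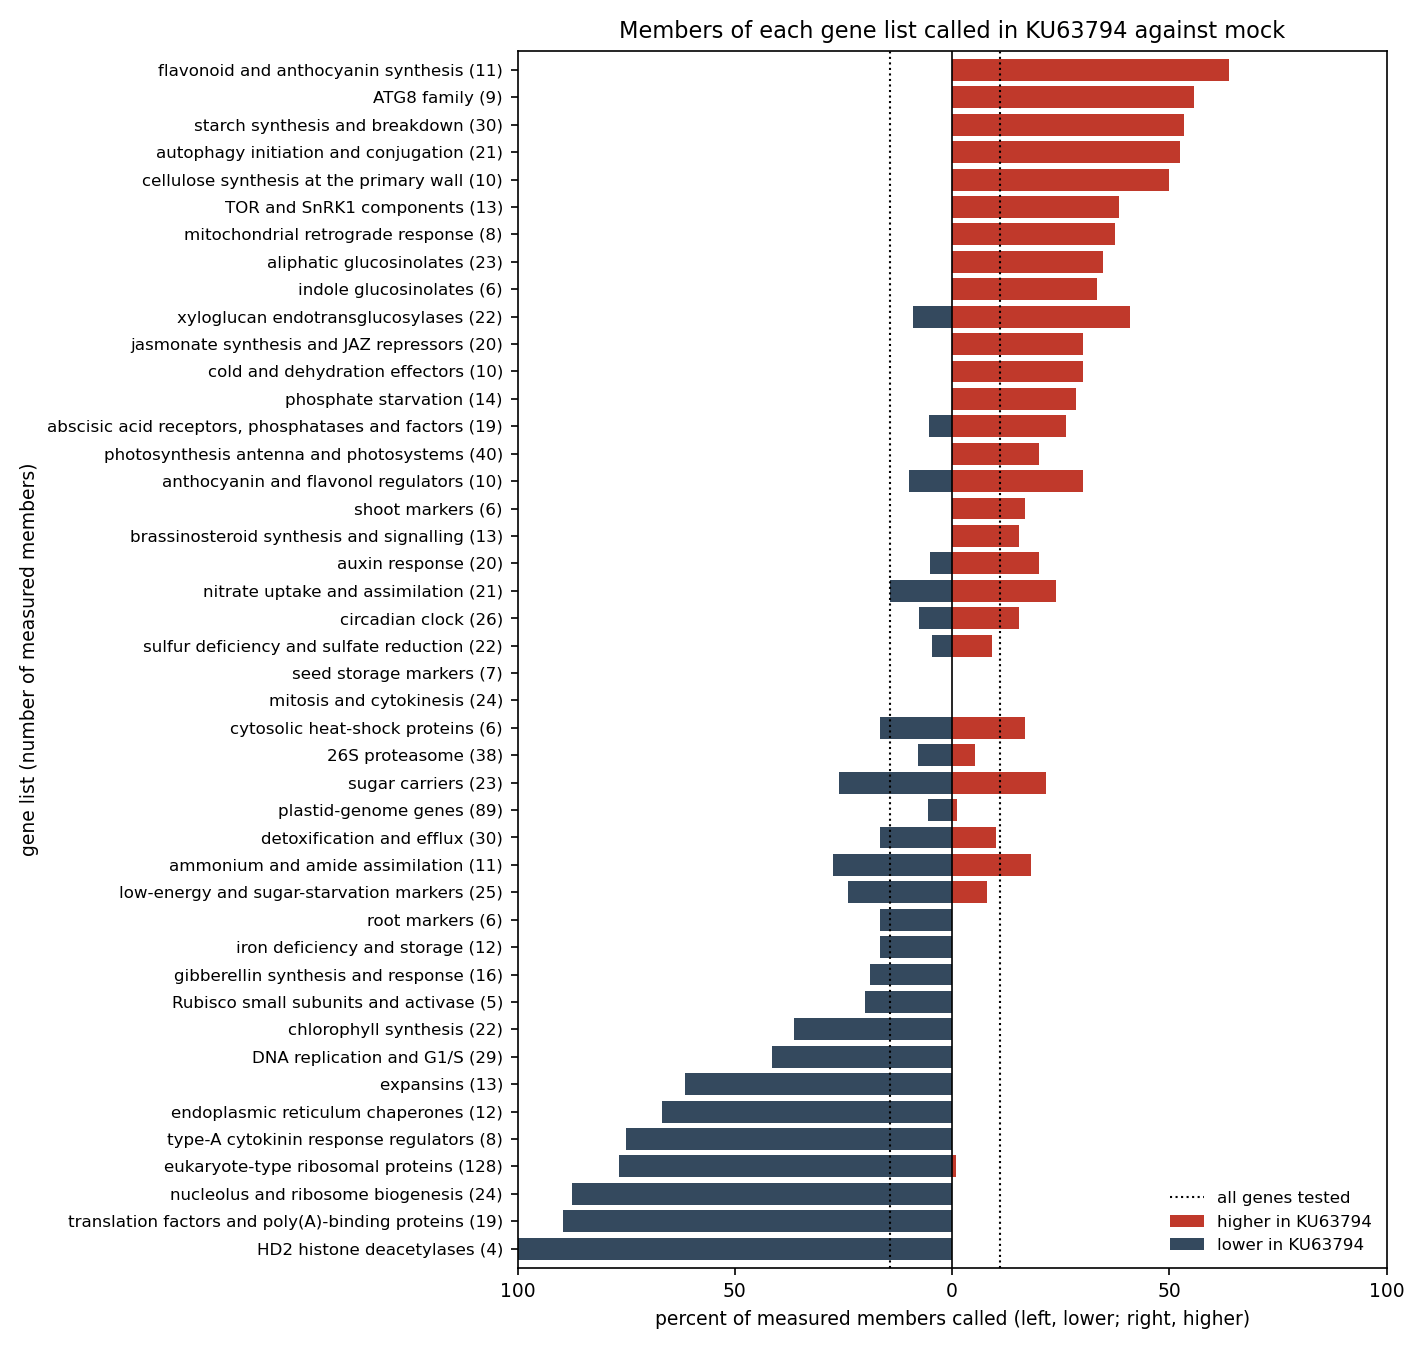
Percent of the measured members of each gene list that were called higher (right) or lower (left) in KU63794 against mock, with the number of measured members in parentheses. Dotted lines mark the shares among all genes tested, 11.1% higher and 14.3% lower.

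Ribosomal protein genes were lower as a group. Of 128 measured genes with a eukaryote-type ribosomal protein product, 98 (76.6%) were lower and 1 was higher with KU63794, and their median log2 fold change was -1.19. They took 1.02% ± 0.09 of all counts with KU63794 and 2.11% ± 0.08 in mock (SD, n = 3 each). AT2G37600, a ribosomal protein L36e, had 22.8, 15 and 28.2 CPM with KU63794, against 73.0, 66.3 and 59.7 CPM in mock. Its highest KU63794 library lay below its lowest mock library (log2 fold change -1.60, SE 0.19, edgeR adjusted p = 4.26e-05). AT4G18100, a ribosomal protein L32e, had 43.5, 33.5 and 58.2 CPM with KU63794, against 149, 143 and 136 CPM in mock, the largest fall in the list (-1.66, SE 0.16, edgeR adjusted p = 8.32e-06). The single higher member, AT1G17080, belongs to the L18ae family and was 0.33 higher on the log2 scale (edgeR adjusted p = 0.0233). This call was lost without any 1 of the mock libraries and without KU63794 replicate 2. Outside the list, AT3G60245, a zinc-binding ribosomal protein, was among the genes with the largest loss of counts, at 341, 269 and 382 CPM with KU63794 against 1024, 954 and 914 CPM in mock. Its log2 fold change was -1.54 (SE 0.13, edgeR adjusted p = 3.89e-06). Ribosomal protein genes occur as near-identical copies, between which reads may be split in ways the deposited counts do not show. In bulk tissue, fewer cells of a type and less RNA per cell cannot be told apart.

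Genes that build the ribosome in the nucleolus were lower too. Of 24 measured members of the nucleolus list, 21 were lower and none was higher, with a median of -1.22. Nucleolin, NUC-L1, which acts in the transcription and processing of ribosomal RNA, had 266, 255 and 316 CPM with KU63794, against 648, 682 and 689 CPM in mock. The 2 groups were far apart (-1.27, SE 0.14, edgeR adjusted p = 1.53e-05). NOP56, a core protein of the particles that methylate ribosomal RNA, had 58.5, 48.4 and 58.5 CPM with KU63794 and 140, 143 and 145 CPM in mock (-1.37, SE 0.22, edgeR adjusted p = 0.000666). The second NOP56-like gene, AT5G27120, had 25.2, 21.6 and 25.1 CPM with KU63794, against 65.9, 65.8 and 65.6 CPM in mock. In both genes KU63794 replicate 2 was the lowest library, and the mock libraries were close together. RID2, a methyltransferase needed for processing of pre-ribosomal RNA, fell by 1.44 on the log2 scale, and the fibrillarins FIB1 and FIB2, which carry out the methylation, fell by 1.31 and 1.54. Over the measured members of the list the log2 fold change reached no higher than -0.48.

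The 4 genes of the plant-specific HD2 histone deacetylases, nucleolar proteins of which some silence ribosomal RNA genes, were all lower. HDT4 had 15.9, 10.7 and 12.5 CPM with KU63794, against 48.5, 52.3 and 49.7 CPM in mock, the largest change of the family. Its log2 fold change was -1.94 (SE 0.16, edgeR adjusted p = 2.61e-06). HDA3 had 33.8, 23.2 and 34.6 CPM with KU63794 and 90.8, 86.4 and 89.8 CPM in mock (-1.54, SE 0.24, edgeR adjusted p = 0.000736). HD2B and HD2C fell by 1.47 and 0.60 on the log2 scale. The HD2 levels of the 3 KU63794 libraries stood at -1.28, -1.64 and -1.27 relative to the mock mean, on the log2 scale.

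Translation factors followed the same direction, with exceptions inside gene families. Of 19 measured members, 17 were lower and none was higher, with a median of -0.84. Elongation factor 2, LOS1, which moves the ribosome along the message, had 72.1, 72.7 and 92.7 CPM with KU63794, against 159, 179 and 191 CPM in mock (-1.15, SE 0.11, edgeR adjusted p = 8.32e-06). LSP1, which encodes eIF(iso)4E, a protein that binds the cap of the message, had 58.2, 58.1 and 59.2 CPM with KU63794, against 118, 119 and 120 CPM in mock. The libraries of each group were almost equal (-1.03, SE 0.08, edgeR adjusted p = 2.39e-06). Poly(A)-binding proteins coat the tail of the message, and their genes differed among themselves. PAB4 had 89.2, 69.8 and 87.9 CPM with KU63794, against 226, 240 and 235 CPM in mock (-1.51, SE 0.13, edgeR adjusted p = 4.39e-06). PAB8 fell by 1.19. PAB2 had 597, 578 and 545 CPM with KU63794, against 679, 629 and 655 CPM in mock, and was not called (edgeR adjusted p = 0.209). The other member that was not called was EIF4G, the scaffold of the cap-binding complex, at 38.5, 49.9 and 52.2 CPM with KU63794 and 44.8, 49.7 and 43.8 CPM in mock.

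**Figure D3:**
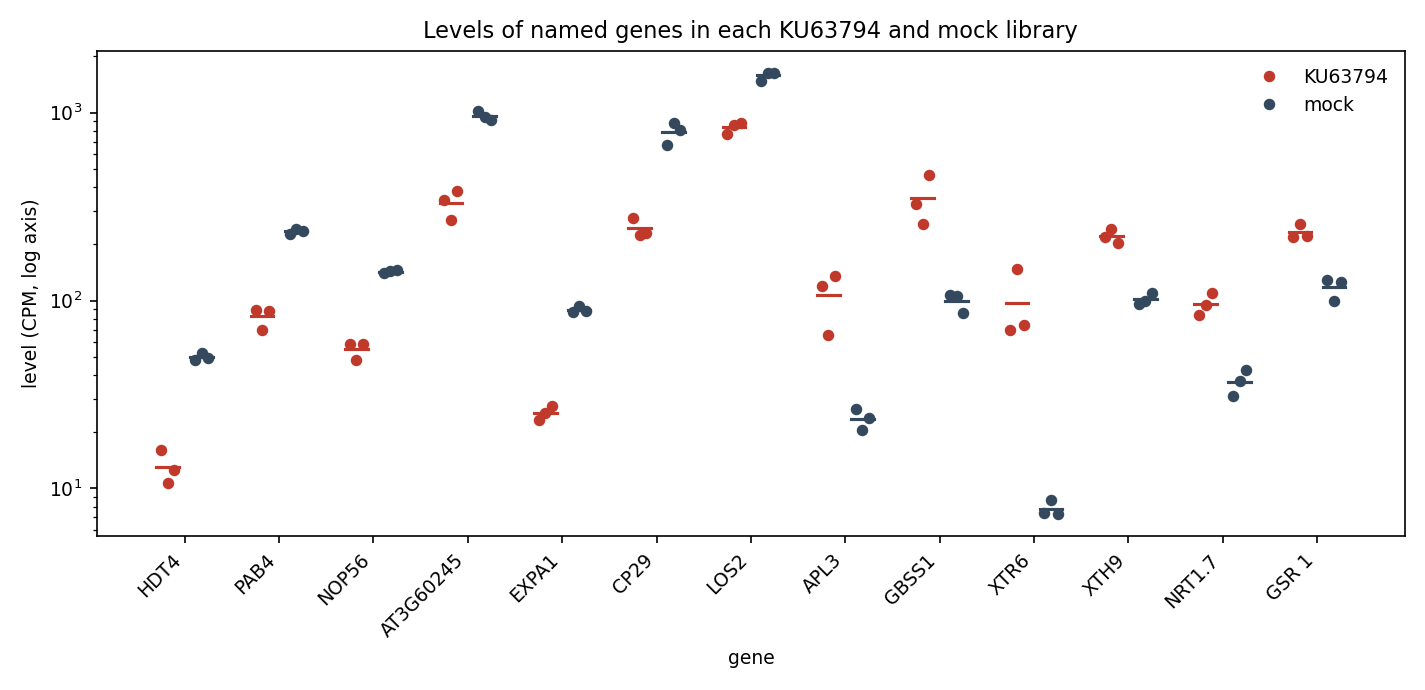
Level in CPM (log axis) of 13 named genes (x axis) in each KU63794 library (red points, left) and each mock library (dark points, right), with lines at the means. In every gene shown the KU63794 points lie all on one side of the mock points, which the rule for naming genes required.

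Chaperones of the endoplasmic reticulum, which fold secreted proteins, were lower. Of 12 measured members, 8 were lower and none was higher, with a median of -0.39. Calnexin, CNX1, had 118, 103 and 123 CPM with KU63794, against 183, 189 and 197 CPM in mock (-0.73, SE 0.10, edgeR adjusted p = 0.000101). BIP1, the lumenal HSP70, had 109, 102 and 131 CPM with KU63794, against 167, 177 and 182 CPM in mock (-0.62, SE 0.10, edgeR adjusted p = 0.000438). Neither gene overlapped between the groups, as the naming rule required. Of 6 cytosolic heat-shock genes, the constitutive HSC70-1 was lower, at 83.9, 70.6 and 57.3 CPM with KU63794 and 134, 188 and 129 CPM in mock (-1.09, SE 0.20, edgeR adjusted p = 0.00162). The inducible HSP70 was higher, at 10.8, 12.6 and 13.7 CPM with KU63794 and 7.05, 7.23 and 6.26 CPM in mock (0.84, SE 0.18, edgeR adjusted p = 0.00304). The 26S proteasome, which degrades tagged proteins, changed little: of 38 measured subunits 2 were higher and 3 lower, below the shares of all genes, with a median of -0.02. Without any 1 of the 6 libraries 1 was lower, and without mock replicate 2 or 3 or KU63794 replicate 1, 1 was higher. AT5G20000, an ATPase subunit, rose by 0.44, and RPN8A, a subunit of the regulatory lid, fell by 0.39.

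Autophagy genes were higher. Among the ATG8 genes, whose products coat the forming autophagosome, 5 of 9 were higher and none lower, with a median of 0.45. APG8A (ATG8a) had 81.7, 99.8 and 83.5 CPM with KU63794, against 51.9, 55.8 and 46.9 CPM in mock (0.77, SE 0.12, edgeR adjusted p = 0.000224). Of 21 genes of initiation and conjugation, 11 were higher and none lower, with a median of 0.42. The count was 6 without mock replicate 1 and 7 without mock replicate 2. AtATG18a, a protein that binds the membrane where the autophagosome forms, had 28.5, 34.2 and 27.0 CPM with KU63794 and 19.3, 16.0 and 15.9 CPM in mock (0.80, SE 0.12, edgeR adjusted p = 0.000172). ATG3, the enzyme that attaches ATG8 to lipid, rose by 0.60. For both genes the groups did not overlap, which the naming rule required. Among 13 genes of the TOR and SnRK1 complexes, 5 were higher and none lower, with a median of 0.20. TOR itself, the kinase that the compound is made to block, had 133, 154 and 148 CPM with KU63794, against 113, 121 and 119 CPM in mock (0.30, SE 0.10, edgeR adjusted p = 0.0325). The groups did not overlap, but the call held only without KU63794 replicate 1 among the analyses that left out 1 library. RAPTOR2, a TOR partner, had 22.8, 24.3 and 24.3 CPM with KU63794, against 18.3, 18.5 and 17.5 CPM in mock (0.40, SE 0.10, edgeR adjusted p = 0.00832). KIN10, the catalytic subunit of SnRK1, rose by 0.36.

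Starch genes rose on both sides of starch metabolism. Of 30 measured members, 16 were higher and none lower, with a median of 0.45, against 0.01 over all genes tested. The shares over all genes tested were 11.1% higher and 14.3% lower. With 1 library left out, 11 to 16 starch genes were higher, and 10 kept their call in every such analysis. On the synthesis side, APL3, a large subunit of ADP-glucose pyrophosphorylase, had 119, 65.4 and 135 CPM with KU63794, against 26.4, 20.5 and 23.7 CPM in mock. KU63794 replicate 2 was the lowest of its group but still far above mock (2.18, SE 0.24, edgeR adjusted p = 6.89e-05). GBSS1, which makes amylose, had 327, 257 and 464 CPM with KU63794, against 108, 106 and 86.0 CPM in mock (1.80, SE 0.21, edgeR adjusted p = 4.16e-05). On the breakdown side, SEX4, a phosphatase that removes phosphate from starch, had 220, 161 and 263 CPM with KU63794 and 85.1, 86.7 and 100.4 CPM in mock (1.25, SE 0.15, edgeR adjusted p = 3.25e-05). DPE2, which uses the maltose released from starch, had 711, 659 and 778 CPM with KU63794, against 337, 305 and 394 CPM in mock (1.05, SE 0.15, edgeR adjusted p = 0.000107). The groups did not overlap in any of these 4 genes, as the naming rule required. ISA3, a debranching enzyme, rose by 1.00, and PHS1, the plastid phosphorylase whose promoter is shown above, rose by 0.60.

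Sugar carriers moved in both directions. Of 23 measured members, 5 were higher and 6 lower, where 11.1% of all genes tested were higher and 14.3% lower. SWEET14, an exporter of the plasma membrane, had 4.92, 4.40 and 5.14 CPM with KU63794, against 0.821, 1.14 and 0 CPM in mock, and SUC1, a sucrose importer, rose by 0.68. MSS1 (also known as STP13), a hexose importer, had 11.7, 17.8 and 14.0 CPM with KU63794 and 26.6, 30.7 and 31.9 CPM in mock (-1.03, SE 0.21, edgeR adjusted p = 0.00256). Several carriers of the vacuole membrane were among the lower genes. SWEET16 and SWEET17 each fell by 0.82 and ERDL6 by 0.77. In the cytosolic part of glucose breakdown, LOS2, an enolase, had 771, 860 and 883 CPM with KU63794, against 1481, 1631 and 1628 CPM in mock (-0.91, SE 0.12, edgeR adjusted p = 5.02e-05). Cytosolic isocitrate dehydrogenase, cICDH, had 899, 1043 and 948 CPM with KU63794 and 1542, 1707 and 1720 CPM in mock (-0.78, SE 0.12, edgeR adjusted p = 0.000208). OEP16-1, a pore of the outer plastid envelope, had 837, 645 and 884 CPM with KU63794, against 351, 344 and 406 CPM in mock (1.10, SE 0.19, edgeR adjusted p = 0.000613).

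Nuclear genes for the chloroplast did not move as a block. Over all genes tested, 11.1% were higher and 14.3% lower. Of 40 genes of the photosystems and their antennae, 8 were higher and none lower, with a median of 0.21. The count was 3, 5 or 4 without mock replicate 1, 2 or 3, and 5 without KU63794 replicate 2 or 3. The antenna gene LHB1B2 had 314, 329 and 283 CPM with KU63794, against 189, 212 and 173 CPM in mock (0.69, SE 0.12, edgeR adjusted p = 0.000642). PSBQ-2, of the oxygen-evolving complex, had 1360, 1430 and 1300 CPM with KU63794 and 997, 966 and 934 CPM in mock (0.50, SE 0.12, edgeR adjusted p = 0.00697). Both groups of values were separate in each gene, as the naming rule required. Of 22 chlorophyll synthesis genes, none was higher and 8 were lower, with a median of -0.17. HEMC, an early enzyme of the tetrapyrrole chain, had 259, 217 and 234 CPM with KU63794 and 396, 422 and 429 CPM in mock (-0.81, SE 0.12, edgeR adjusted p = 0.000141). GUN5, a subunit of the magnesium chelatase, had 443, 501 and 503 CPM with KU63794 and 461, 473 and 428 CPM in mock, and the groups overlapped.

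Of 5 measured genes for Rubisco small subunits and the Rubisco activase, 1 was lower and none higher. RBCS1B, a small subunit, had 2175, 1816 and 2350 CPM with KU63794, against 3517, 4110 and 4206 CPM in mock (-0.90, SE 0.19, edgeR adjusted p = 0.00318). GLDP2, a P-protein of glycine decarboxylase, the photorespiratory enzyme of mitochondria, had 2000, 2835 and 2193 CPM with KU63794, against 1306, 1458 and 1423 CPM in mock (0.75, SE 0.14, edgeR adjusted p = 0.00134), and GLDP1, the other P-protein gene, rose by 0.57. CP29, a chloroplast RNA-binding protein that stabilises plastid messages, had 275, 222 and 230 CPM with KU63794, against 675, 886 and 813 CPM in mock. No KU63794 library came near the mock range (-1.71, SE 0.15, edgeR adjusted p = 4.39e-06). The chaperonin subunit CPN60B had 967, 650 and 982 CPM with KU63794 and 1666, 1926 and 2096 CPM in mock (-1.13, SE 0.17, edgeR adjusted p = 0.000178). Of 89 measured genes of the plastid genome itself, 1 was higher and 5 lower, below the shares of all genes. The lower count was 0 without mock replicate 1, 1 without KU63794 replicate 2, 2 without mock replicate 3 or KU63794 replicate 3 and 3 without KU63794 replicate 1, and the higher call was lost without mock replicate 1 or 3 or KU63794 replicate 1. The plastid genome gave 0.248% to 0.362% of counts with KU63794 and 0.288% to 0.325% in mock after selection for poly(A).

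Nitrogen genes changed one by one rather than as a list. Of 21 nitrate genes, 5 were higher and 3 lower, where 11.1% of all genes tested were higher and 14.3% lower. With 1 library left out, 4 to 7 nitrate genes were higher and 2 to 4 lower. NRT1.7, which loads nitrate from old leaves into the phloem, had 83.3, 95.1 and 109 CPM with KU63794, against 31.1, 37.2 and 42.9 CPM in mock (1.38, SE 0.17, edgeR adjusted p = 6.49e-05). HRS1, a repressor of the phosphate starvation response that is induced by nitrate, had 1.33, 1.10 and 1.83 CPM with KU63794, against 7.87, 5.14 and 8.60 CPM in mock (-2.34, SE 0.26, edgeR adjusted p = 1.77e-05). NIA1, a nitrate reductase, had 129, 243 and 170 CPM with KU63794 and 321, 433 and 319 CPM in mock (-0.99, SE 0.23, edgeR adjusted p = 0.00852). KU63794 replicate 2 was the library nearest to mock. Of 11 ammonium and amide genes, 2 were higher and 3 lower, and all lower calls held with each library left out. Without any single library other than mock replicate 1, 1 was higher. The cytosolic glutamine synthetase GSR 1 (AT5G37600) had 219, 255 and 221 CPM with KU63794, against 129, 99.3 and 125 CPM in mock (0.98, SE 0.11, edgeR adjusted p = 1.69e-05). The NADH-dependent glutamate synthase GLT1 had 182, 169 and 203 CPM with KU63794 and 305, 332 and 310 CPM in mock (-0.77, SE 0.10, edgeR adjusted p = 5.02e-05). ASN2, an asparagine synthetase, and GDH1, a glutamate dehydrogenase, fell by 1.08 and 1.05.

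Other nutrient lists differed in the number of calls. Of 14 phosphate starvation genes, 4 were higher, above the 11.1% of all genes tested, and none was lower (14.3% of all genes tested). Without mock replicate 1, without KU63794 replicate 1 or without KU63794 replicate 3, 2 were higher. PHO2, the ubiquitin-conjugating enzyme that limits phosphate uptake, had 161, 137 and 155 CPM with KU63794, against 104, 96.4 and 97.8 CPM in mock (0.60, SE 0.09, edgeR adjusted p = 0.000172). Of 22 sulfur genes, 2 were higher and 1 lower, or 4 and 0 without KU63794 replicate 2. The lower call was also lost without mock replicate 1 or 3 or KU63794 replicate 3. It held in only 1 of the analyses that left out 1 library. The vacuolar sulfate exporter SULTR4;1 rose by 0.49. The iron store FER3, a ferritin, had 138, 123 and 130 CPM with KU63794 and 180, 214 and 225 CPM in mock (-0.66, SE 0.10, edgeR adjusted p = 0.000207). Of the 12 iron genes, 2 were lower and none was higher with all libraries, and 5 were higher without KU63794 replicate 2. BHLH100, a regulator induced by iron shortage, had 6.10, 1.02 and 9.71 CPM with KU63794 and 1.44, 2.47 and 1.04 CPM in mock, so that replicate 2 lay just below the lowest mock library and the other KU63794 libraries lay above every mock library (edgeR adjusted p = 0.113, and 0.0029 without replicate 2).

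Genes that remodel the cell wall went in opposite directions by family. Expansins, which loosen the wall in growing cells, were lower in 8 of 13 measured members and higher in none, with a median of -0.63. EXPA1 had 23.1, 25.1 and 27.5 CPM with KU63794, against 86.9, 93.2 and 87.5 CPM in mock (-1.82, SE 0.13, edgeR adjusted p = 1.31e-06). A wide gap separated the groups. EXPA11 and EXP3 fell by 0.89 and 1.07. Xyloglucan endotransglucosylases, which cut and rejoin the wall polymer xyloglucan, were higher in 9 of 22 members and lower in 2, with a median of 0.37, and 1 was lower without any single library other than KU63794 replicate 3. XTH9 had 219, 239 and 201 CPM with KU63794, against 96.3, 98.9 and 110 CPM in mock (1.11, SE 0.12, edgeR adjusted p = 1.69e-05). XTH24 had 475, 894 and 422 CPM with KU63794 and 177, 274 and 228 CPM in mock (1.40, SE 0.31, edgeR adjusted p = 0.00771). XTH15 and XTH18 rose by 3.40 and 3.33, and XTH8, a lower member, fell by 0.65. In XTH15, XTH18 and XTH24 KU63794 replicate 2 was the highest library, with 116 CPM of XTH15 against 58.5 and 46.4 CPM in replicates 1 and 3.

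Of 10 genes for cellulose synthesis in the primary wall, 5 were higher and none lower, with a median of 0.44. Without mock replicates 1 or 3 or KU63794 replicate 2, 3 were higher. CESA2, a catalytic subunit, had 150, 194 and 166 CPM with KU63794, against 102, 115 and 110 CPM in mock (0.64, SE 0.12, edgeR adjusted p = 0.00162). COB, which orients cellulose deposition, had 209, 318 and 211 CPM with KU63794, against 145, 169 and 151 CPM in mock (0.67, SE 0.14, edgeR adjusted p = 0.00318), and CEV1 (also known as CESA3) rose by 0.58. KU63794 replicate 2 was again the highest library in CESA2 and COB.

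DNA replication genes were lower while mitotic genes were not called. Of 29 genes of replication and the entry into S phase, 12 were lower and none higher, with a median of -0.41. Without mock replicate 3 or without KU63794 replicate 2, 7 were lower. RNR1, the large subunit of ribonucleotide reductase, which supplies deoxynucleotides, had 60.7, 55.8 and 65.1 CPM with KU63794, against 95.9, 104 and 103 CPM in mock (-0.74, SE 0.14, edgeR adjusted p = 0.00152). CYCD2;1, a D-type cyclin, had 10.6, 10.5 and 9.62 CPM with KU63794 and 16.0, 16.5 and 16.2 CPM in mock (-0.66, SE 0.15, edgeR adjusted p = 0.00454). CDC6 and CDT1A, which license replication origins, fell by 0.78 and 0.68. Of 24 genes of mitosis and cytokinesis, none was called in either direction and the median was 0.08. edgeR, DESeq2 and limma voom gave 0 of these genes even at an unadjusted p below 0.05. CDKB2;1, a kinase of the G2 and M phases, had 29.5, 25.4 and 30.2 CPM with KU63794 and 27.8, 26.8 and 24.5 CPM in mock, and the groups overlapped. Promoters of 11 of the 29 replication genes, 37.9%, held an E2F site (TTTCCCGC or TTTGGCGC, both strands). The share was 1.21% of all promoters, of tested genes or not, 1.53% of those of lower genes and 0.72% of those of higher genes.

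Hormone lists differed in the number of calls. Over all genes tested, 11.1% were higher and 14.3% lower. Type-A response regulators, which are induced by cytokinin and dampen its signal, were lower in 6 of 8 members with a median of -1.04. ARR7 had 7.66, 10.1 and 9.13 CPM with KU63794, against 22.5, 26.2 and 19.9 CPM in mock (-1.36, SE 0.17, edgeR adjusted p = 4.08e-05). Of 16 gibberellin genes, 3 were lower and none higher. GASA6, a peptide gene induced by gibberellin, had 25.2, 19.2 and 19.2 CPM with KU63794, against 65.5, 64.3 and 56.6 CPM in mock (-1.55, SE 0.15, edgeR adjusted p = 8.44e-06). GA3OX1, the enzyme that makes active gibberellin, had 0.625, 0.393 and 0.664 CPM with KU63794 and 2.26, 2.85 and 1.69 CPM in mock, low levels in every library (-2.01, SE 0.42, edgeR adjusted p = 0.00268). Of 13 brassinosteroid genes, 2 were higher and none lower, and 1 was higher without any single library other than KU63794 replicate 3. BR6OX1, a late synthesis enzyme, kept its call throughout, at 6.72, 4.71 and 5.64 CPM with KU63794 and 2.46, 2.28 and 2.61 CPM in mock (1.22, SE 0.22, edgeR adjusted p = 0.00104).

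Of 19 genes for abscisic acid perception, 5 were higher and 1 lower, where 11.1% of all genes tested were higher and 14.3% lower. HAI1, a phosphatase that restrains the signal, had 2.58, 2.75 and 1.33 CPM with KU63794, against 0.342, 0.476 and 0.521 CPM in mock (2.33, SE 0.45, edgeR adjusted p = 0.0016). The receptor RCAR1 rose by 0.90 and the receptor RCAR3 fell by 0.77. Of 10 cold and dehydration effectors, 3 were higher and none lower. LTI78 (also known as RD29A) had 28.5, 25.7 and 34.8 CPM with KU63794, against 11.9, 10.8 and 8.99 CPM in mock (1.47, SE 0.18, edgeR adjusted p = 4.86e-05), and the dehydrin ERD10 rose by 0.89. Among 20 auxin genes, 4 were higher and 1 lower, and the lower call was lost without mock replicate 1 or 2 or KU63794 replicate 1 or 3. WES1, which joins auxin to amino acids, had 24.4, 30.8 and 25.4 CPM with KU63794 and 11.9, 10.6 and 9.91 CPM in mock (1.31, SE 0.27, edgeR adjusted p = 0.004). For HAI1, LTI78 and WES1 the groups did not overlap, which the naming rule required.

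Single genes of chemical defence changed in both directions. Of 30 detoxification genes, 3 were higher and 5 lower, near the shares over all genes tested (11.1% higher and 14.3% lower). Without mock replicate 1 or 2 or KU63794 replicate 1 or 3, 3 were lower. GSTF6, a glutathione transferase, had 93.3, 66.6 and 117 CPM with KU63794, against 21.5, 16.4 and 14.7 CPM in mock (2.38, SE 0.40, edgeR adjusted p = 0.00225). CYP81D11, a cytochrome P450, had 8.05, 15.5 and 9.21 CPM with KU63794 and 27.8, 31.1 and 30.1 CPM in mock (-1.44, SE 0.28, edgeR adjusted p = 0.00223). Among 8 genes of the mitochondrial retrograde response, 3 were higher, and the alternative oxidase AOX1A rose by 0.49. BGLU22, a beta-glucosidase, had 9.30, 10.3 and 9.79 CPM with KU63794, against 59.6, 43.9 and 40.5 CPM in mock (-2.30, SE 0.35, edgeR adjusted p = 0.000826). PYK10, the main glucosidase of the endoplasmic reticulum bodies, had 4430, 4428 and 5157 CPM with KU63794 and 6603, 7864 and 8173 CPM in mock (-0.69, SE 0.16, edgeR adjusted p = 0.00644). Both genes are known for expression in roots and hypocotyls. The root marker PRP3 had 0.625, 0.550 and 0.913 CPM with KU63794 and 1.99, 1.52 and 1.83 CPM in mock (edgeR adjusted p = 0.0256), a call that was lost without any 1 of the mock libraries and without KU63794 replicate 1 or 2. Among root markers below the filter, EXPA7, EXPA18 and RHD6 had 4, 3 and 8 counts over the KU63794 libraries and 32, 14 and 23 counts over the mock libraries. The root markers CASP1 and SCR overlapped between the groups. The part of root or hypocotyl tissue in these changes was not tested.

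Some of the largest changes belong to genes that are given here by gene ID only. AT1G80130, a tetratricopeptide repeat protein, had 19.0, 14.1 and 22.7 CPM with KU63794, against 2.26, 2.09 and 1.43 CPM in mock (3.22, SE 0.20, edgeR adjusted p = 4.17e-07). AT1G48598 had 4.46, 3.38 and 6.47 CPM with KU63794, against 54.6, 53.4 and 62.6 CPM in mock (-3.57, SE 0.60, edgeR adjusted p = 0.00229). AT3G59930, a defensin-like protein, had 1.56, 2.20 and 2.57 CPM with KU63794 and 15.9, 18.3 and 11.2 CPM in mock (-2.84, SE 0.29, edgeR adjusted p = 1.09e-05). The groups were far apart in all of them.

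A set of lists depended on KU63794 replicate 2. Of all genes tested, 11.1% were higher and 14.3% lower with all libraries. Low-energy and sugar-starvation markers, genes that SnRK1 or darkness induce, were lower in 6 and higher in 2 of 25 measured members, with a median of -0.34, but lower in 13 with a median of -0.68 without that library. Without mock replicate 2 or KU63794 replicate 3, 3 were lower. Their mean log2 level stood at -0.61, 0.24 and -0.53 in KU63794 replicates 1, 2 and 3 relative to the mock mean, against 0.05, 0.15 and -0.20 in the mock libraries. BT2, a sugar- and nitrogen-responsive scaffold protein, had 49.6, 171 and 95.9 CPM with KU63794 and 233, 316 and 283 CPM in mock. Unlike the list mean, replicate 2 stayed below mock in BT2. ERD5, a proline dehydrogenase, had 592, 1021 and 641 CPM with KU63794 and 442, 519 and 375 CPM in mock. Replicate 2 was the highest KU63794 library in both genes.

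Flavonoid and anthocyanin genes were higher in 7 of 11 members with a median of 1.44, and in 9 with a median of 1.81 without KU63794 replicate 2. Leaving out any other single library gave 4 or 5, with 4 without mock replicates 2 or 3 or KU63794 replicates 1 or 3. GSTF12, which carries anthocyanins to the vacuole, had 51.3, 20.7 and 45.7 CPM with KU63794, against 14.2, 11.7 and 9.26 CPM in mock (1.72, SE 0.29, edgeR adjusted p = 0.00127). Of 10 measured regulators of the pigments, 3 were higher and 1 lower. The higher calls held with each library left out. The lower call was lost without any 1 of the mock libraries and without KU63794 replicate 2 or 3. PAP1 (AT1G56650), a MYB factor that switches on anthocyanin genes, had 22.8, 7.38 and 29.1 CPM with KU63794, against 5.55, 2.66 and 1.43 CPM in mock (2.50, SE 0.53, edgeR adjusted p = 0.00733). TT8, a regulator of the late pigment genes, had 11.3, 5.26 and 13.7 CPM with KU63794 and 2.19, 2.66 and 1.04 CPM in mock (2.30, SE 0.37, edgeR adjusted p = 0.00064). Replicate 2 was the lowest KU63794 library in these 3 genes and still above mock.

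Aliphatic glucosinolate genes, which make defence compounds from methionine, were higher in 8 of 23 members with a median of 0.73, and in 13 with a median of 0.95 without KU63794 replicate 2. The count was 3 without mock replicate 2 or KU63794 replicate 3, 4 without KU63794 replicate 1 and 5 without mock replicate 1. IMD1, an enzyme of methionine chain elongation, had 233, 130 and 232 CPM with KU63794, against 120, 85.4 and 108 CPM in mock (0.92, SE 0.22, edgeR adjusted p = 0.00936). MYB28, the main regulator of the pathway, had 26.1, 14.3 and 31.9 CPM with KU63794 and 24.3, 21.4 and 23.1 CPM in mock, and the groups overlapped.

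**Figure D4:**
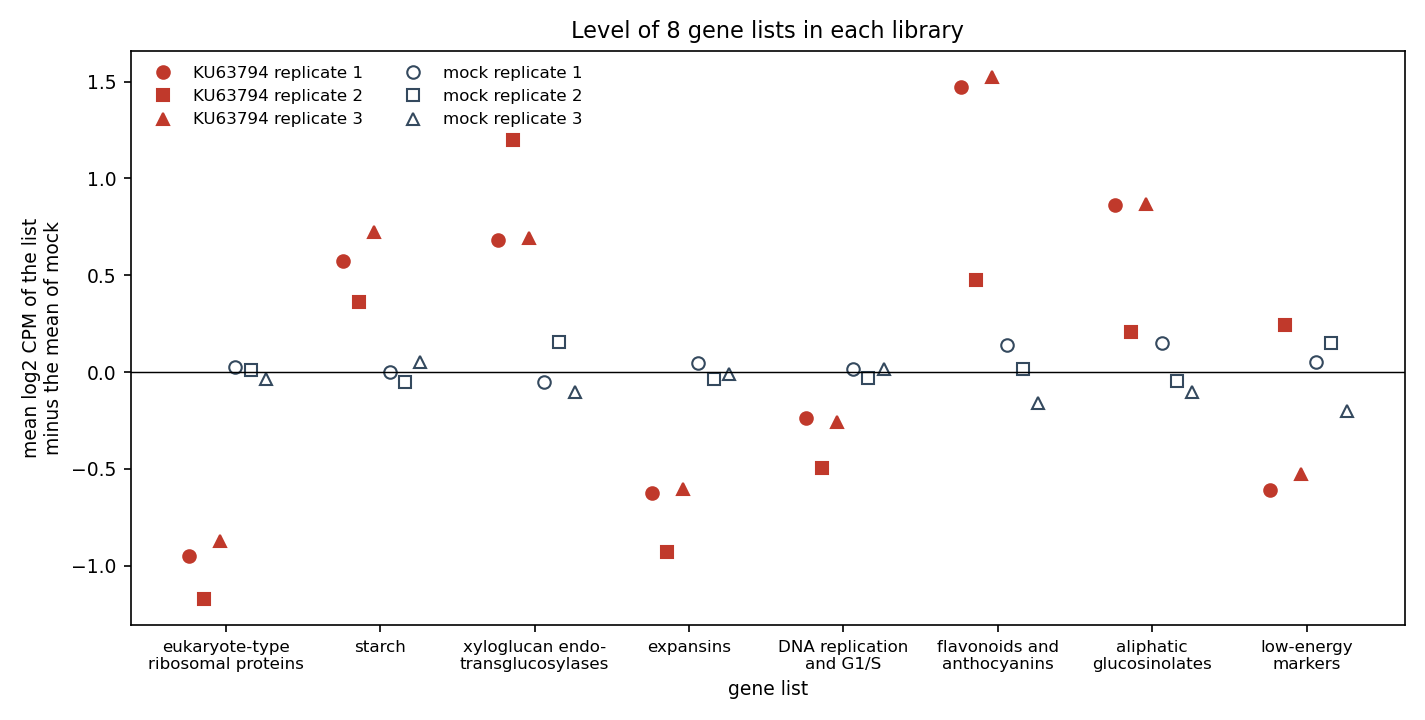
Mean log2 CPM of 8 gene lists (x axis) in each library, minus the mean of the mock libraries, with filled red symbols for KU63794 and open symbols for mock. KU63794 replicate 2 (square) lies at 0.24 for the low-energy list, where replicates 1 and 3 lie at -0.61 and -0.53, and at 0.47 for the flavonoid list, where they lie at 1.48 and 1.52.

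Set directly against the other inhibitors, KU63794 at 20 µM differed from AZD8055 at 2 µM in 1 gene of 17933, 0.00558% (edgeR, adjusted p below 0.05). DESeq2 gave 3 higher and 13 lower genes and limma voom 0 and 1, and at an unadjusted p below 0.05 edgeR gave 670 higher and 828 lower genes. The edgeR gene, AT5G08400, with a product of unknown function, had 12.6, 11.3 and 11.0 CPM with KU63794, 24.2, 28.5 and 23.1 CPM with AZD8055 and 19.9, 20.2 and 23.3 CPM in mock (-1.12 relative to AZD8055, edgeR adjusted p = 0.0036). Without KU63794 replicate 3 its adjusted p was 0.0642. A p above the threshold does not show that the compounds act alike. From TORIN1 at 10 µM, KU63794 differed in 505 genes (2.82%), 108 higher (0.602%) and 397 lower (2.21%). These counts fell to 1 and 1 without TORIN1 replicate 3, to 3 and 2 without TORIN1 replicate 2 and to 9 and 17 without KU63794 replicate 2, and 126 genes were lower without KU63794 replicate 1. They were 267 and 668 without TORIN1 replicate 1. Dose and compound cannot be told apart.

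The antenna gene LHB1B2 kept its call against TORIN1 with each library left out. It had 314, 329 and 283 CPM with KU63794, 297, 273 and 362 CPM with AZD8055, 120, 129 and 109 CPM with TORIN1 and 189, 212 and 173 CPM in mock (1.37 relative to TORIN1, SE 0.12, edgeR adjusted p = 0.000203). KU63794 lay above mock and TORIN1 below it. ARR7 had 7.66, 10.1 and 9.13 CPM with KU63794, 11.4, 9.98 and 8.86 CPM with AZD8055, 15.6, 22.1 and 22.3 CPM with TORIN1 and 22.5, 26.2 and 19.9 CPM in mock (-1.16 relative to TORIN1, SE 0.17, edgeR adjusted p = 0.0103). RPL3B, a ribosomal protein gene, had 12.4, 7.23 and 12.4 CPM with KU63794, 12.9, 12.5 and 11.4 CPM with AZD8055, 23.5, 28.4 and 27.1 CPM with TORIN1 and 29.0, 35.6 and 30.8 CPM in mock (-1.30 relative to TORIN1, SE 0.17, edgeR adjusted p = 0.00743). In both genes KU63794 lay far below mock, and TORIN1 close to it. AT5G18840, a carrier of the major facilitator family, had 18.9, 23.1 and 28.2 CPM with KU63794, 33.4, 45.3 and 44.7 CPM with AZD8055, 32.8, 40.6 and 43.4 CPM with TORIN1 and 5.20, 5.04 and 5.87 CPM in mock (-0.74 relative to TORIN1, SE 0.16, edgeR adjusted p = 0.0307). Here every inhibitor library lay above every mock library, and the KU63794 libraries lay lowest among the inhibitors. Without TORIN1 replicate 2 or 3 the adjusted p was 0.0603 or 0.07 for ARR7, 0.0552 or 0.0659 for RPL3B and 0.133 or 0.154 for AT5G18840. For AT5G18840 it was also 0.0715 without KU63794 replicate 1 and 0.13 without KU63794 replicate 2.

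**Figure D5:**
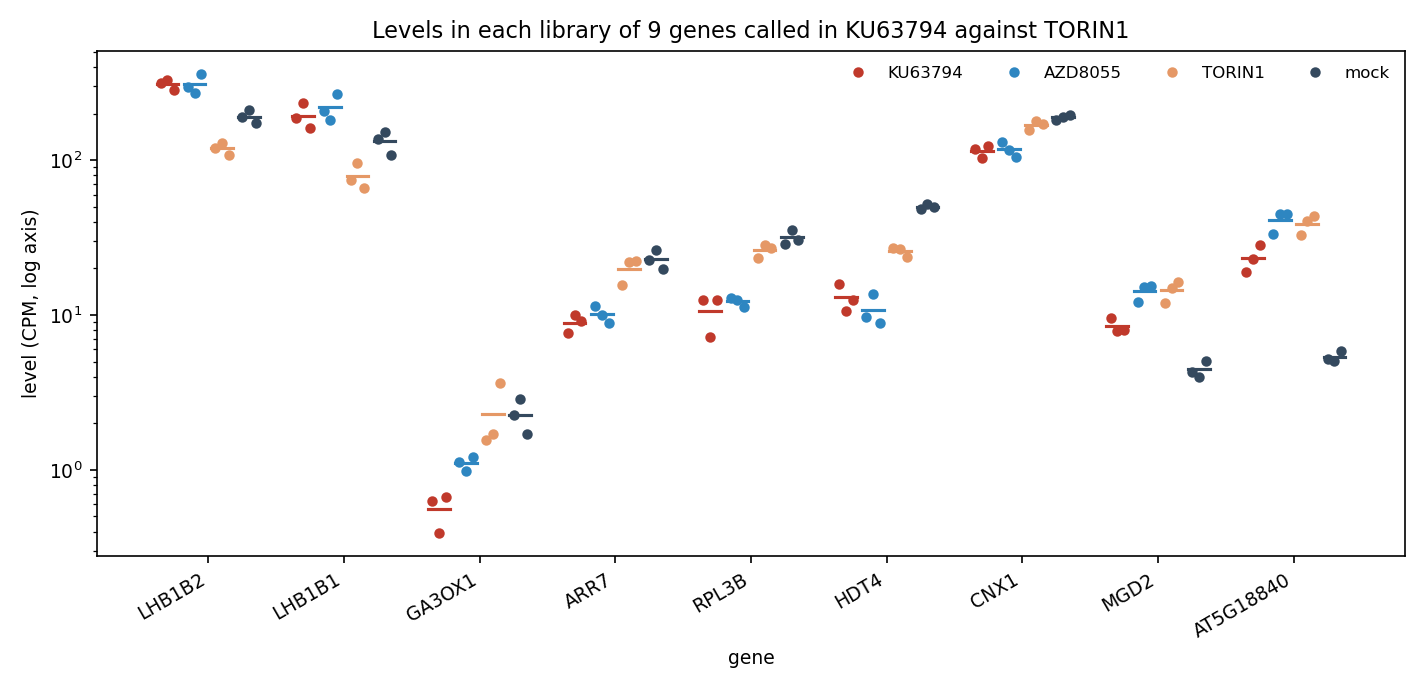
Level in CPM (log axis) of 9 genes (x axis) called in KU63794 against TORIN1, in each library of KU63794, AZD8055, TORIN1 and mock, with lines at the means. For LHB1B2 the KU63794 points lie at 283 to 329 CPM and the TORIN1 points at 109 to 129 CPM.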

How the data were processed

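Polyadenylated RNA was sequenced from 12 shoot libraries, 3 in each of 4 groups, and each library was given the group its label states. The authors deposited raw counts per gene, and these whole-number counts were the basis of every test. The authors also deposited normalized signal values, which equal the counts divided by 1 size factor per library and were used only as a check. The authors' deposited table for KU63794 gives log2 fold changes of mock over KU63794, a Wald score, p-values and adjusted p-values for the genes they kept. The submitters' processing notes name TAIR10 as genome build, StringTie (version 1.3.3) and DESeq2 (version 1.18.1). Which aligner was used, whether strand was counted and how shared reads were treated is not stated there. The files hold no coordinates, and 0 columns could not be mapped to a library.

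Counts were tested with edgeR 4.0.16 (quasi-likelihood, robust, TMM scaling, low counts removed with filterByExpr) in R 4.3.3, with all 12 libraries in the fit, no covariate and Benjamini-Hochberg adjustment at 0.05. CPM values are counts scaled to 1000000 per library after the TMM factor was applied, list levels are log2 CPM with a prior count of 2, and the SE is the absolute log2 fold change over the root of the F statistic. A count of 0 was read as at most 3 counts. Alternatives were RLE scaling, no filter, DESeq2 1.42.0, limma voom 3.58.1, a replicate block, the 6 libraries of a contrast alone, and each library left out. The procedure was tested on simulated data.

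Symbols came from the RefSeq table of TAIR10.1, in which 10654 of 32835 gene IDs have a symbol. Promoter windows reach 250 bases before and 50 bases after the annotated start on that genome, with strand taken from its annotation. The members of the 44 gene lists and the comparisons were chosen with earlier results of these data known. A gene was eligible to be named if it was called, averaged at least 1 CPM over the KU63794 and mock libraries and did not overlap between them, and ranked high in fold change, in CPM difference, within its list or in a contrast with another inhibitor. Members of a list may be given whether or not they were called.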

Additional observations from a re-analysis of the deposited data

How the results depend on the processing

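The numbers of genes higher and lower with KU63794 against mock stayed within 1.5 times of 1988 and 2567 under every alternative run. With the replicate block they were 1999 and 2569, with limma voom 1909 and 2661, without the filter 1821 and 2421, and with 1 library left out 1376 to 1743 and 1914 to 2156. Of all calls, 1018 higher and 1648 lower genes kept their call with each library left out. The contrasts with the other inhibitors were less stable, and the cause was not tested. Against AZD8055, higher genes numbered 3 with DESeq2 and 0 to 1 with 1 library left out. Lower genes numbered 13 with DESeq2, 2 with the replicate block, 0 with only the 6 libraries of the contrast and 0 to 2 with 1 library left out. Against TORIN1, higher genes numbered 322 with DESeq2, 28 with only the 6 libraries and 1 to 267 with 1 library left out. Lower genes numbered 224 with RLE scaling, 765 with DESeq2, 130 with only the 6 libraries and 1 to 668 with 1 library left out. Same-numbered KU63794 and mock libraries deviated together with correlations of 0.0896, 0.0746 and 0.0772, each the best match of its KU63794 library, which is a hint from the data and not a pairing by design. Of 108 named genes that were called, 105 kept the call in all 6 alternative analyses and 103 with each library left out. Of the named genes that were not called, 2 changed sign. EIF4G ranged from -0.060 to 0.15 and MYB28 from -0.18 to 0.34 with 1 library left out, and MYB28 stood at -0.012 with limma voom. The number of 3 libraries a group limits what can be called, and genes at a few CPM carry the widest errors.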

Other observations

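Jasmonate synthesis genes and JAZ repressors, which make the wound hormone and hold back its response, were higher in 6 of 20 measured members and lower in none, with a median of 0.52. The shares over all genes tested were 11.1% higher and 14.3% lower. Without mock replicate 1, 2 members of the list were higher, and without mock replicate 2 or KU63794 replicate 3, 3 were. AOC1, an allene oxide cyclase, had 11.0, 10.3 and 11.6 CPM with KU63794 and 5.96, 5.71 and 5.87 CPM in mock (0.91, SE 0.15, edgeR adjusted p = 0.000549). LOX3, a lipoxygenase, had 11.8, 14.0 and 11.4 CPM with KU63794 and 6.98, 6.56 and 9.91 CPM in mock (0.68, SE 0.17, edgeR adjusted p = 0.00814). These were the list members that kept their call with each library left out.

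Of all genes tested, 11.1% were higher and 14.3% lower. Among 26 clock genes, 4 were higher and 2 lower, with a median of 0.06. Without mock replicate 1 or 2 or KU63794 replicate 1 or 2, 1 was higher, and without mock replicate 3, 2 were. Without any single library other than KU63794 replicate 2, 1 was lower. Of 6 measured genes of indole glucosinolates, 2 were higher, with none higher without mock replicate 1 or 2 and 1 without KU63794 replicate 1 or 3. Seed storage genes differed between libraries of 1 group. Their summed level was 1.02, 206 and 126 CPM with KU63794 and 39.2, 50.8 and 70.3 CPM in mock, and none of the 7 measured members was called by edgeR (0 also in each analysis that left out 1 library). CRU3, a cruciferin, had 0, 92.0 and 69.7 CPM with KU63794 and 14.6, 24.8 and 32.9 CPM in mock, so that KU63794 replicate 1 alone lay near 0.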
